A study of Mus musculus with 42 samples.

Results

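The HOX genes were taken as every gene of the count table whose symbol is Hox, a cluster letter from a to d and a paralogue number, which gave 39 of 55011 genes. The rule used names only and no measured value. All 39 had at least 1 count somewhere in the 42 libraries, and 16 of them reached 3 CPM (counts scaled to a common library total) in every library of at least 1 group, which is called "on" below. The other 23 were on in no group.

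HOX proteins are homeodomain transcription factors that tell cells where along the body axis they belong. Their genes sit in the Hoxa, Hoxb, Hoxc and Hoxd clusters, in which low paralogue numbers are used towards the head and high numbers towards the tail and in limbs and genital tissue, and adult stromal cells are known to keep much of the combination laid down in the embryo. HOX proteins bind DNA together with TALE homeodomain partners (PBX, MEIS and the PKNOX proteins), and Polycomb and Trithorax proteins hold the clusters silent or active.

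The libraries came from mouse visceral adipose tissue (VAT), or from cells cultured from it. Stromal cells carried the genotype Pparg-Tdt, and their sorted populations VmSC4 and VmSC5 were sequenced fresh (n = 3 each), after 8 days of adipogenic differentiation medium (n = 3 each), and after adoptive transfer into recipient mice of a line written Kaeda. Donor VmSC4 were recovered as VmSC4 (called VmSC4-derived VmSC4, n = 3) or as VmSC5 (VmSC4-derived VmSC5, n = 3), and donor VmSC5 as VmSC5 (VmSC5-derived VmSC5, n = 2). The cells that float after digestion, labelled adipocyte, were from Pparg-Tdt:Foxp3-DTR+ mice, in which diphtheria toxin depletes Foxp3-expressing regulatory T (Treg) cells, and from Pparg-Tdt:Foxp3-DTR- littermates. Both genotypes received the toxin (n = 2 each). VmSC5 in differentiation medium were kept without or with Treg (n = 3 each; the design text speaks of conditioned medium of Treg cells), and with PBS or oncostatin M (OSM, a cytokine of the interleukin 6 family) at 10 ng/mL (n = 3 each). Treg cells were labelled Osm WT (OSM+/+) and Osm KO (OSMf/f; n = 3 each). The sorting markers, the Cre line, the strain, sex and age are not given in the sources used here, nor is the source of each replicate (its own mouse or well), so that p-values measure only the spread between these libraries, which may be technical.

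Total counts ran from 1072147 to 12514783 per library and differed between experiments, with fresh cells deepest and the PBS and OSM cultures shallowest. Osm was at 28.4 to 34.1 CPM in the WT and 7.76 to 14.6 CPM in the KO Treg libraries, and Foxp3 was at 154 CPM or more in all 6 Treg libraries. Adipoq, which encodes adiponectin, was at 4921 CPM or more in the 8-day cultures and 5251 CPM or more in the floating cells, and Pdgfra, a stromal receptor, at 541 CPM or more in fresh and transferred cells. In these bulk libraries a smaller share of cells of a type and less RNA per cell cannot be told apart.

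The HOX combination of the VAT stroma was a central one. Together the 39 genes made up 187 to 223 CPM in the 6 fresh libraries, and paralogue groups 4 to 8 held 73.3% to 77.6% of these counts, groups 9 to 13 held 13.6% to 20.0% and groups 1 to 3 held 6.73% to 9.62%. Both fresh populations had 12 genes on, of which 11 were shared: Hoxa3, Hoxa5, Hoxa7, Hoxb5, Hoxb6, Hoxb7, Hoxc4, Hoxc5, Hoxc6, Hoxc8 and Hoxc9. Hoxd8 passed this threshold in fresh VmSC4 and not in fresh VmSC5, and Hoxb2 the reverse, but neither was called between the populations.

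**Figure D1:**
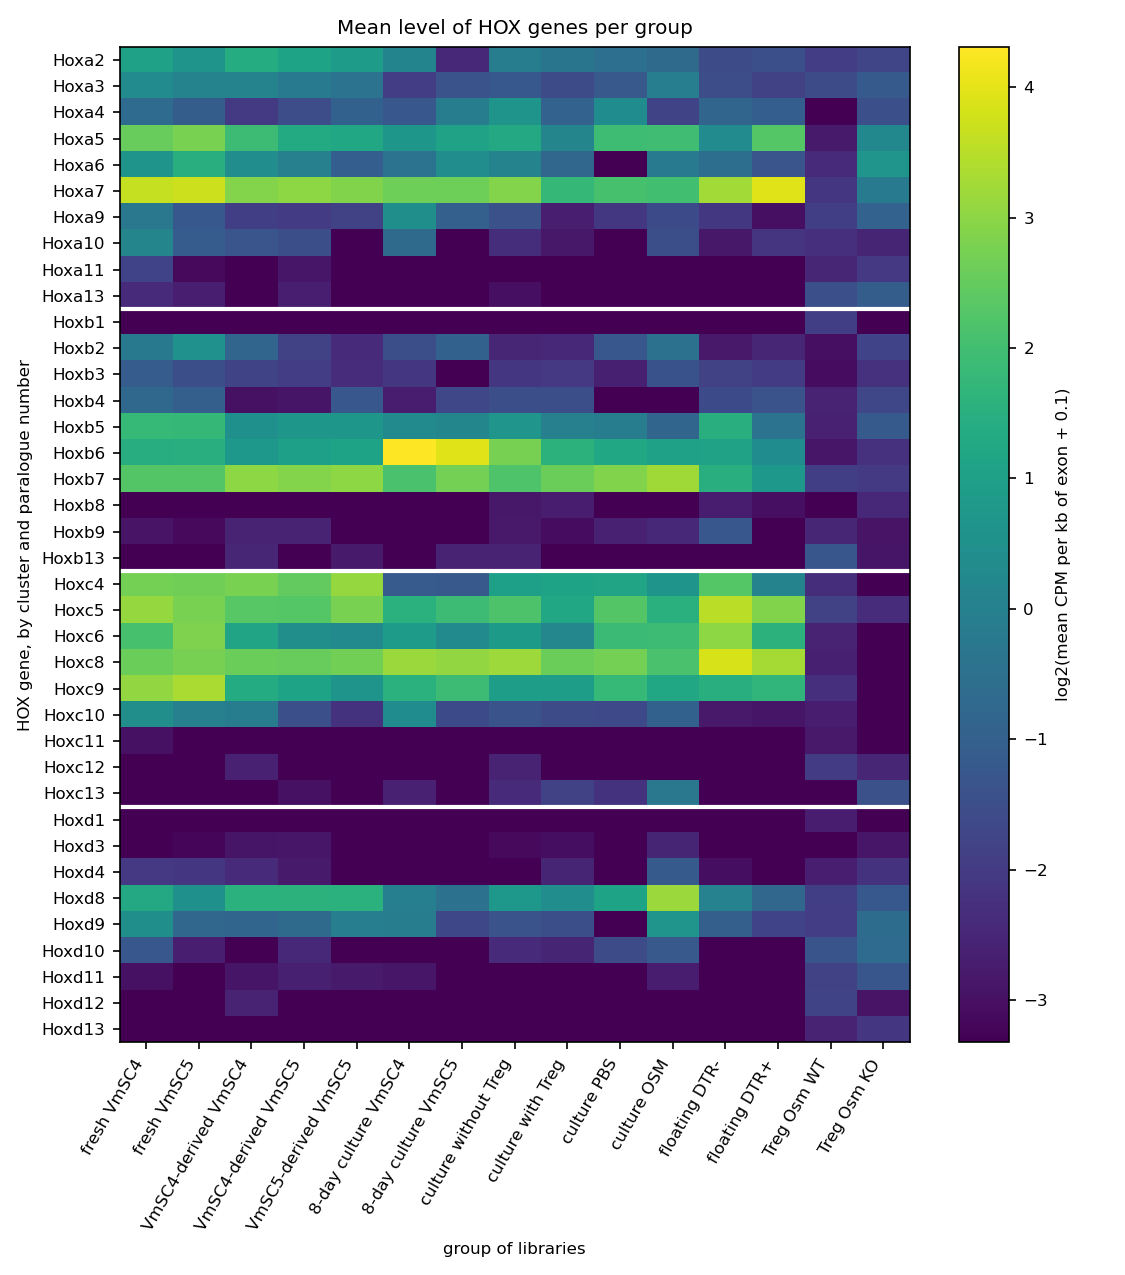
Mean level of the HOX genes reported here (vertical axis, by cluster and paralogue number, white lines between clusters) in each of the 15 groups (horizontal axis), as log2 of the mean CPM per kb of exon plus 0.1. Hoxa5 and Hoxa7, Hoxb5 to Hoxb7, Hoxc4 to Hoxc9 and Hoxd8 form the bright rows of the stromal and floating groups, the rows of paralogue groups 10 to 13 are dark, and the columns of the 2 Treg groups hold no gene that is on.

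Levels of different genes were compared per kb of exon. In fresh VmSC4 Hoxa7 was highest at 12.4 CPM per kb, followed by Hoxc5 at 8.41, Hoxc9 at 8.27, Hoxc4 at 6.47, Hoxc8 at 5.98 and Hoxa5 at 5.69 CPM per kb (means, n = 3). In fresh VmSC5 Hoxa7 was again highest, at 13.3 CPM per kb, then Hoxc9 at 10.0 and Hoxc6 at 7.02 CPM per kb. Hoxa7 alone gave 17.9% and 19.1% of the HOX CPM of the fresh populations. Neighbours in this order lay close: the fresh VmSC4 means of Hoxc5 and Hoxc9, and those of Hoxc8 and Hoxa5, differed by less than 0.3 CPM per kb.

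Hoxa7, Hoxc5 and Hoxc8 were on in all 13 groups other than Treg cells. Hoxc9 was on in 12, absent from this list in VmSC5-derived VmSC5 alone, where its 2 libraries held 4.83 and 2.23 CPM. Group totals of the cluster showed the same weight on Hoxa and Hoxc: in fresh VmSC4 the Hoxc genes summed to 92.2 CPM, Hoxa to 69.1, Hoxb to 27.2 and Hoxd to 10.3 CPM (means, n = 3).

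At the head end, Hoxa3 was on in 5 groups and Hoxa2 and Hoxb2 in 1 group each, and Hoxb1 and Hoxd1 had no count in any of the 36 libraries other than Treg cells. At the tail end, the 12 members of paralogue groups 10 to 13 gave 2.77% of the HOX counts of fresh stroma, 1.58% in transferred cells, 1.60% in the cultures and 0.238% in floating cells. None of those 12 was on in any group. Hoxa10 came nearest, at 4.79, 1.88 and 3.34 CPM in fresh VmSC4, and Hoxc10 was at 2.96, 1.88 and 2.48 CPM there. Just inside the threshold stood Hoxb2 at 4.94, 3.83 and 5.39 CPM in fresh VmSC5, and just outside it Hoxd9 at 3.28, 2.06 and 3.00 CPM in fresh VmSC4.

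All 39 genes have positions in the GENCODE M21 annotation of GRCm38 (mm10). Hoxa lies on chromosome 6 from 52155590 to 52260880, Hoxb on chromosome 11 from 96194316 to 96368256, Hoxc on chromosome 15 from 102921103 to 103036852 and Hoxd on chromosome 2 from 74668310 to 74765142. Exons of another annotated gene overlap those of 16 of the members. Hoxd3 shares 62.8% of its exon bases, Hoxb3 52.9%, Hoxd4 52.3%, Hoxa11 35.0%, Hoxb2 27.3%, Hoxa3 27.1% and Hoxa7 20.4% with such neighbours, several of them antisense, and the strand setting of the counting is not given in the sources used here, so levels of these 7 are uncertain. No exon of another gene overlaps those of Hoxa5, Hoxa6, Hoxb6, Hoxb7, Hoxc4, Hoxc6, Hoxc8, Hoxc9, Hoxd8 or Hoxd9. Hoxa5 and Hoxa6 do lie within the span of Hoxa3, and Hoxc6, Hoxc8 and Hoxc9 within that of Hoxc5.

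**Figure D2:**
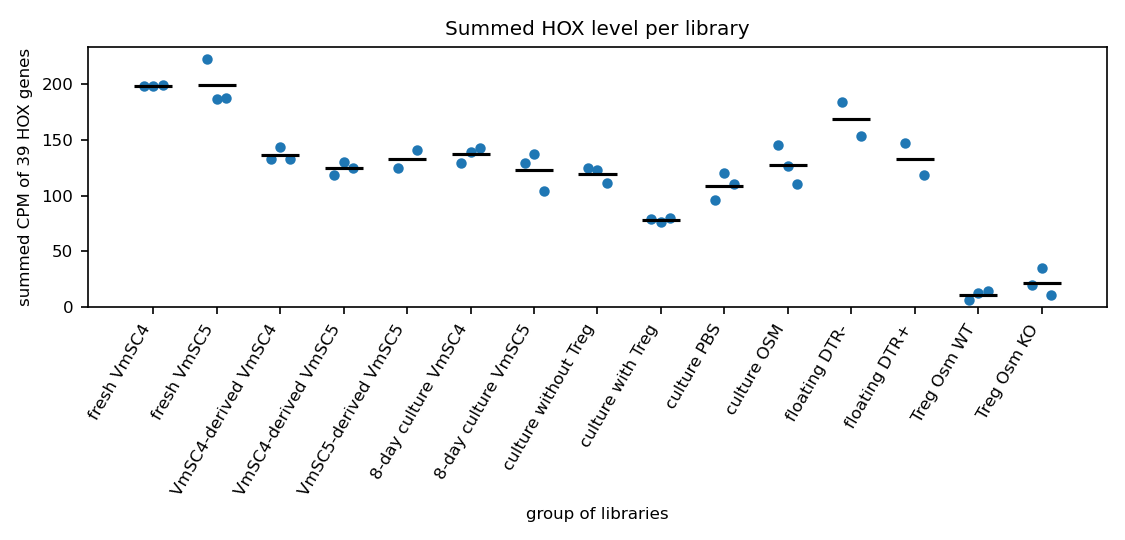
Summed CPM of the 39 HOX genes (vertical axis) in every library (points) of the 15 groups (horizontal axis), with the group mean as a black line. Fresh libraries lie at 187 to 223 CPM, transferred ones at 119 to 143, cultures at 76.3 to 145, floating cells at 118 to 184 and Treg cells at 6.76 to 35.2.

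The first comparison asked whether the fresh VmSC4 and VmSC5 populations differ in HOX genes. Hoxc6 was at 9.19, 8.76 and 12.3 CPM in VmSC4 and at 17.5, 17.8 and 15.5 CPM in VmSC5, with no overlap. Its log2 fold change of 0.83 ± 0.30 (SE) missed the threshold of an adjusted p under 0.05, at an adjusted p of 0.0506 (edgeR quasi-likelihood F test, Benjamini-Hochberg over 13947 genes). Hoxd9 was at 3.28, 2.06 and 3.00 CPM in VmSC4 against 1.13, 1.17 and 0.704 CPM in VmSC5 (log2 fold change −1.36 ± 0.57, adjusted p = 0.0993). Hoxd8 was at 5.27, 7.42 and 6.42 CPM in VmSC4 and 4.02, 2.34 and 4.46 CPM in VmSC5, without overlap (−0.73 ± 0.33, adjusted p = 0.133). Hoxb2 was at 1.84, 3.22 and 2.83 CPM in VmSC4 against 4.94, 3.83 and 5.39 CPM, also without overlap (0.93 ± 0.44, adjusted p = 0.148). Neither passed the test.

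Hoxa10 gave a log2 fold change of −1.39 ± 0.59 (adjusted p = 0.105), and its VmSC5 values of 0.744 to 1.65 CPM lay below all VmSC4 values. None of the 19 HOX genes tested was called, against 18.4% of all genes. At an unadjusted p under 0.05 there were 6 of the 19 by edgeR, against 4312 of 13947 over all genes, a similar share. DESeq2 gave 2 and also called 0. Hoxc6 was called under RLE scaling (adjusted p = 0.0441), without the low-count filter (0.0430) and with only these 2 groups fitted (0.0260). The median log2 fold change was 0.04 over the tested HOX genes and −0.02 over all genes.

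After 8 days of culture 0.34% of all genes were called between the populations, and again no HOX gene of 20 tested. Here 5 had an unadjusted p under 0.05 by edgeR, against 1040 of 13221 over all genes, and 0 by DESeq2. The 3 smallest were Hoxa10, Hoxa2 and Hoxa9. Hoxa9 was at 3.80, 11.1 and 6.52 CPM in cultured VmSC4 and at 1.29, 3.44 and 2.14 CPM in cultured VmSC5 (log2 fold change −1.70 ± 0.58, adjusted p = 0.352). Hoxa2 had 12 counts against 1 (ratio 11.9, 95% counting interval 1.76 to 507), with an adjusted p of 0.351. Hoxa10 had 11 counts against 0, at least 3.63-fold lower in VmSC5 when 0 is replaced by the floor of 3 counts for the group, with an adjusted p of 0.186. The response to culture itself did not pass the test of a difference between populations for any of the 20 genes, against 2.87% of all genes. At an unadjusted p under 0.05 there were 3 by edgeR, against 2338 of 13221 over all genes. DESeq2 gave 1 and also called 0. The smallest p belonged to Hoxc6, with a difference of −1.41 ± 0.53 (adjusted p = 0.154), followed by Hoxa2 (−3.11 ± 1.30, adjusted p = 0.204) and Hoxa10 (−5.46 ± 2.33, adjusted p = 0.215).

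The comparison of 8-day adipogenic cultures with fresh cells showed a changed HOX combination in both populations. Hoxb6 rose and became the highest HOX gene per kb, Hoxc8 rose, Hoxc4 fell to near 0, and Hoxc9, Hoxa3, Hoxa5, Hoxa7 and Hoxb5 fell. The control VmSC5 cultures of the Treg and OSM experiments held less Hoxb6 and more Hoxc4 than these cultures, as given below. With PBS, Hoxb6 overlapped its values in fresh VmSC5, so its rise was not seen in every culture. Among the 20 tested genes 3 rose and 7 fell in VmSC4, where 70.4% of all genes were called, 31.9% higher and 38.5% lower. In VmSC5 3 rose and 9 fell, where 71% of all genes were called, 33.4% higher and 37.6% lower. In both populations the share of HOX genes called was below that background. The median log2 fold change of the tested HOX genes was −0.52 in VmSC4, against −0.23 over all genes, and −0.86 in VmSC5, against −0.18. These folds use TMM scaling, so they differ from ratios of CPM, which divide by the library total.

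Hoxb6, a trunk-level paralogue, was at 6.39, 3.67 and 5.22 CPM in fresh VmSC4 and at 40.2, 37.2 and 38.7 CPM after culture. It was at 5.56, 5.85 and 4.57 CPM in fresh VmSC5 and at 31.0, 35.3 and 23.5 CPM after culture. Every library of these cultures lay above every fresh one by more than 3 times. The log2 fold changes were 3.45 ± 0.24 (adjusted p = 1.15e-12) and 2.92 ± 0.24 (adjusted p = 5.00e-11), and they stayed between 2.74 and 3.65 without any single library. Per kb, Hoxb6 ranked 10 of the 39 genes in both fresh populations and 1 in both cultures, at 19.7 and 15.2 CPM per kb.

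Hoxc4, the most anterior Hoxc gene, moved the other way. It was at 17.8, 15.1 and 17.0 CPM in fresh VmSC4 and at 0, 0.384 and 2.33 CPM after culture, and at 18.5, 16.4 and 13.3 CPM in fresh VmSC5 against 0.860, 1.72 and 0 CPM. The groups did not overlap. The log2 fold changes were −3.63 ± 0.52 (adjusted p = 1.02e-06) and −3.68 ± 0.52 (adjusted p = 7.65e-07). In the other control VmSC5 cultures Hoxc4 was not near 0, at 4.64, 6.25 and 5.12 CPM with PBS and 4.00, 3.99 and 6.45 CPM without Treg.

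Hoxc9, the gene with the highest number among those widely on, was at 19.6, 19.6 and 21.1 CPM in fresh VmSC4 and at 4.34, 6.52 and 9.78 CPM after culture. In VmSC5 it was at 26.2, 25.4 and 21.6 CPM fresh and at 8.17, 12.1 and 6.41 CPM cultured. Its log2 fold changes were −0.99 ± 0.28 (adjusted p = 0.00270) and −1.01 ± 0.26 (adjusted p = 0.00145). Hoxc6 fell in VmSC5 from 17.5, 17.8 and 15.5 to 2.58, 4.73 and 1.07 CPM (−2.12 ± 0.37, adjusted p = 1.30e-05), and in VmSC4 its values of 4.34, 4.60 and 3.73 CPM after culture also lay below every fresh value without passing the test.

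Hoxc8 was the Hoxc gene that rose. Its cultured values of 27.1, 27.6 and 20.5 CPM in VmSC4 lay at or above the fresh 14.6, 20.5 and 15.8 CPM, with a log2 fold change of 1.11 ± 0.22 (adjusted p = 9.91e-05). In VmSC5 the CPM ranges overlapped (23.6, 17.6 and 15.2 fresh, 23.2, 28.0 and 19.8 cultured), and the log2 fold change was 0.76 ± 0.23 (adjusted p = 0.00403), which ended at 0.0592 without cultured VmSC5 replicate 2. Hoxc5 fell in VmSC4 from 25.5, 25.7 and 26.7 to 5.97, 9.98 and 10.2 CPM (−1.01 ± 0.28, adjusted p = 0.00219).

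**Figure D3:**
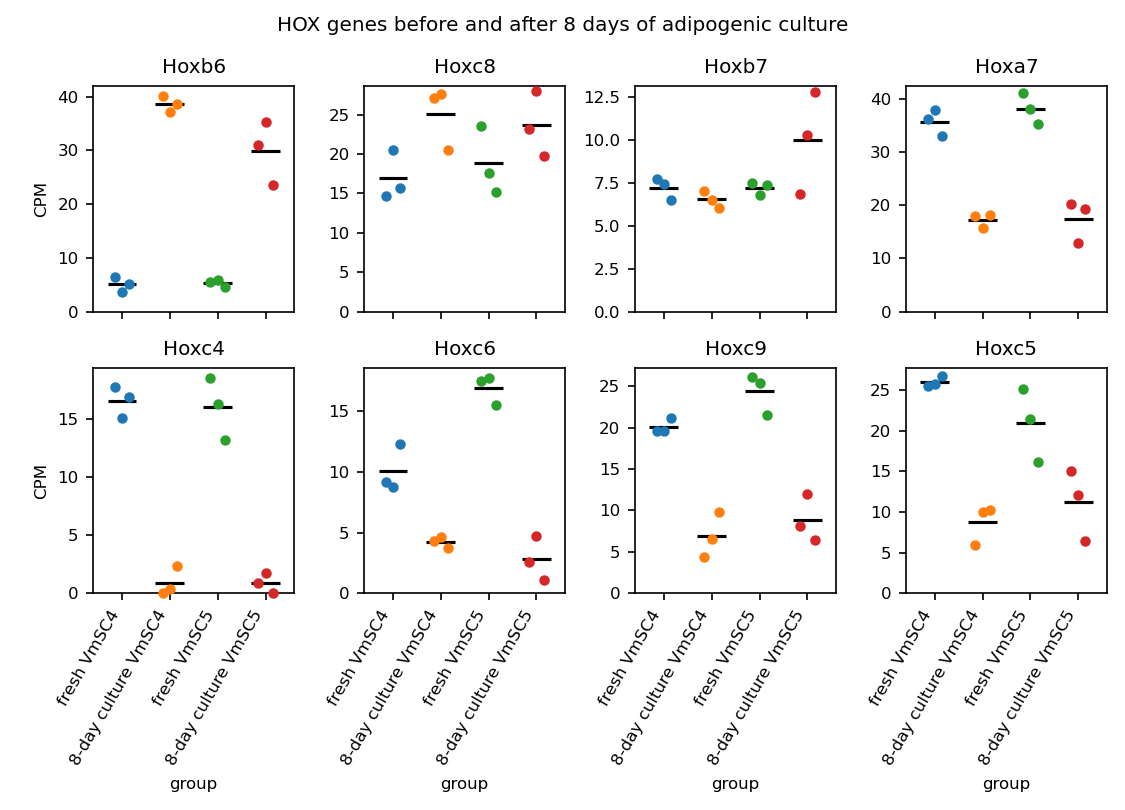
CPM (vertical axes, each from 0) of 8 HOX genes in every library (points) of fresh and 8-day cultured VmSC4 and VmSC5 (horizontal axes), with group means as black lines. Hoxb6 lies at 3.67 to 6.39 CPM fresh and 23.5 to 40.2 CPM cultured, Hoxc4 at 13.3 to 18.5 CPM fresh and 0 to 2.33 CPM cultured.

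The Hoxa genes that were tested mostly fell. Hoxa7 was at 36.3, 37.8 and 33.0 CPM in fresh VmSC4 and 17.9, 15.7 and 18.2 CPM after culture (−0.51 ± 0.19, adjusted p = 0.0221), and at 41.0, 38.1 and 35.3 against 20.2, 12.9 and 19.2 CPM in VmSC5 (−0.71 ± 0.19, adjusted p = 0.00231). Hoxa3 fell with log2 fold changes of −2.38 ± 0.58 and −1.33 ± 0.52, and Hoxa5 with −1.34 ± 0.44 and −1.31 ± 0.42. Hoxb5 fell by 1.01 ± 0.38 and 1.23 ± 0.39 on the log2 scale.

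Hoxa9 rose in VmSC4 only by the test, from 6.39, 3.49 and 2.40 to 3.80, 11.1 and 6.52 CPM, with overlap (1.38 ± 0.46, adjusted p = 0.0107). Hoxb7 passed in VmSC5, from 7.52, 6.80 and 7.39 to 6.88, 10.3 and 12.8 CPM (0.88 ± 0.30, adjusted p = 0.0109). Both differences between populations missed the threshold. In VmSC5, Hoxa2 had 70 counts fresh and 1 after culture (ratio 16.5, counting interval 2.87 to 661), and Hoxa10 had 33 and 0 counts, at least 2.59-fold lower with the floor. Their adjusted p were 0.00419 and 0.0115.

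In VmSC4 the calls of Hoxa5, Hoxa7, Hoxa9 and Hoxb5 were lost without cultured replicate 2 (adjusted p from 0.0773 to 0.192), which left 6 called genes. The Hoxb5 call was also lost with DESeq2 (0.0508) and without fresh VmSC4 replicate 3 (0.0552). In VmSC5 Hoxa3 missed the threshold without fresh replicate 1 or cultured replicate 2, and Hoxb7 without cultured replicate 2 or 3 or the low-count filter. The cells themselves differed: the 8 stromal marker genes summed to 45652 to 52341 CPM in the 6 fresh libraries and to 1389 to 1717 CPM in the 6 cultured ones, and the 8 adipocyte markers to 125 to 209 and 30297 to 33015 CPM. The 8 pericyte and smooth muscle markers summed to 24.9 to 109.8 CPM fresh and 366 to 615 CPM cultured. They did not move as a set. Of 7 tested, Acta2, Cnn1, Cspg4 and Tagln rose in both populations, Abcc9 and Kcnj8 fell in both, and Myh11 fell in VmSC4. The 8 endothelial markers went from 59.0 to 134 CPM fresh to 26.1 to 36.3 CPM cultured, with Cdh5, Emcn and Vwf at 0 in all 6 cultured libraries. Of 4 tested, Tek fell in both populations, Emcn fell in VmSC4 and Egfl7 rose in both. Total counts also differed, at 8527769 or more fresh and 2606360 or fewer cultured. The part of these in the HOX changes was not tested.

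The TALE partners of HOX proteins fell in culture. Of 8 tested, 7 fell in both populations and none rose, against 38.5% of all genes called lower in VmSC4 and 37.6% in VmSC5, with median log2 fold changes of −1.62 and −1.72. Meis1, a partner of central and posterior HOX proteins, went from 128 ± 9.27 to 9.86 ± 3.16 CPM in VmSC4 (SD, n = 3) and, in VmSC5, from 95.3 ± 21 to 8.73 ± 1.08 CPM. Pknox1 went from 53.1 ± 6.29 to 7.28 ± 2.48 CPM in VmSC4.

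Of 29 tested Polycomb and Trithorax genes, 3 rose and 18 fell in VmSC4 and 5 rose and 16 fell in VmSC5. Together these counts lay near the 70.4% and 71% called over all genes, but their direction was more one-sided. Over all genes 31.9% were called higher and 38.5% lower in VmSC4, and 33.4% and 37.6% in VmSC5. The median log2 fold changes of the list were −1.01 and −1.09, against −0.23 and −0.18 over all genes. Kmt2a, the Trithorax methyltransferase known for maintaining HOX expression, went from 73.3 ± 8.96 CPM fresh to 7.11 ± 2.53 CPM cultured in VmSC4 and, in VmSC5, from 83.7 ± 13.2 to 9.02 ± 2.60 CPM, and Cbx7, a Polycomb reader, from 30.6 ± 5.74 to 2.51 ± 2.13 and from 47.3 ± 7.89 to 2.32 ± 0.913 CPM. Among other positional transcription factors 2 rose (Gata6 among them) and 7 fell of 10 tested in VmSC4, and 2 rose and 6 fell in VmSC5. The shares over all genes are those just given. Wt1, a factor of the visceral mesoderm, went from 100 ± 17.0 to 6.88 ± 0.856 CPM in VmSC4 and, in VmSC5, from 64.0 ± 10.4 to 7.16 ± 1.63 CPM. Of the Cdx and retinoid genes, 2 rose and 3 fell of 10 in each population, a smaller share than over all genes, with the retinoic acid receptor gene Rarg going from 38.7 ± 15.6 to 3.97 ± 0.620 CPM in VmSC4.

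Adoptive transfer was compared with fresh cells of the same population. In VmSC4, 1 HOX gene rose and 6 fell of 19 tested, where 46.1% of all genes were called, 21.4% higher and 24.7% lower. In VmSC5, 2 rose and 8 fell, where 46.4% were called, 23.9% higher and 22.4% lower. Hoxc9, Hoxc6, Hoxa7 and Hoxb5 fell and Hoxb7 rose in both. The median log2 fold change over the tested HOX genes was −0.75 and −0.84, and over all genes −0.02 and 0.01. The same fresh libraries serve here and in the culture comparison, so the falls of Hoxc9, Hoxa7 and Hoxb5 in both are not independent.

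Hoxc9 was at 19.6, 19.6 and 21.1 CPM in fresh VmSC4 and at 5.8, 4.58 and 7.73 CPM in VmSC4-derived VmSC4 (−1.64 ± 0.27, adjusted p = 1.98e-05). It was at 26.2, 25.4 and 21.6 CPM in fresh VmSC5 and at 4.83 and 2.23 CPM in VmSC5-derived VmSC5 (−2.82 ± 0.32, adjusted p = 1.48e-07). The groups were far apart, and the VmSC5 value stayed between −3.51 and −2.40 without any single library. VmSC4-derived VmSC5 held 5.02, 6.19 and 3.84 CPM, in the range of the other transferred groups.

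Hoxc6 followed Hoxc9. In VmSC5 it went from 17.5, 17.8 and 15.5 to 1.81 and 3.78 CPM (−2.66 ± 0.42, adjusted p = 1.50e-05). In VmSC4 it went from 9.19, 8.76 and 12.3 to 2.02, 9.15 and 3.96 CPM with overlap (−1.14 ± 0.36, adjusted p = 0.0113), and that call was lost without any of 3 libraries, with adjusted p from 0.0589 to 0.153: fresh replicate 3 and transferred replicates 1 and 3. Hoxc8 and Hoxc4, in the same cluster, were not called: Hoxc8 was at 15.6, 17.3 and 18.0 CPM and Hoxc4 at 14.6, 15.8 and 21.2 CPM in VmSC4-derived VmSC4, close to their fresh values.

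Hoxa7 went from 36.3, 37.8 and 33.0 to 18.2, 21.9 and 22.6 CPM in VmSC4 (−0.75 ± 0.17, adjusted p = 0.000797) and from 41.0, 38.1 and 35.3 to 20.5 and 20.5 CPM in VmSC5 (−0.95 ± 0.19, adjusted p = 0.000219). No transferred library reached a fresh one. Hoxb5 fell by 1.43 ± 0.36 and 1.14 ± 0.38 on the log2 scale, the latter with an adjusted p of 0.143 without VmSC5-derived replicate 2.

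Hoxb7 rose from 7.75, 7.42 and 6.51 to 12.6, 13.7 and 10.7 CPM in VmSC4 (0.78 ± 0.26, adjusted p = 0.0149), and from 7.52, 6.80 and 7.39 to 11.3 and 13.1 CPM in VmSC5 (0.70 ± 0.28, adjusted p = 0.0435). Both groups were without overlap in CPM. Without the low-count filter the adjusted p were 0.0828 and 0.229, and the VmSC5 call was also lost with DESeq2 (0.0621), with only the 2 groups fitted (0.0633) and without each single library (0.0704 to 0.238). Hoxd8 rose in VmSC5, from 4.02, 2.34 and 4.46 to 6.64 and 8.90 CPM (1.05 ± 0.38, adjusted p = 0.0271), a call lost without the filter (0.0763), without fresh replicate 2 (0.104) and without transferred replicate 2 (0.213).

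**Figure D4:**
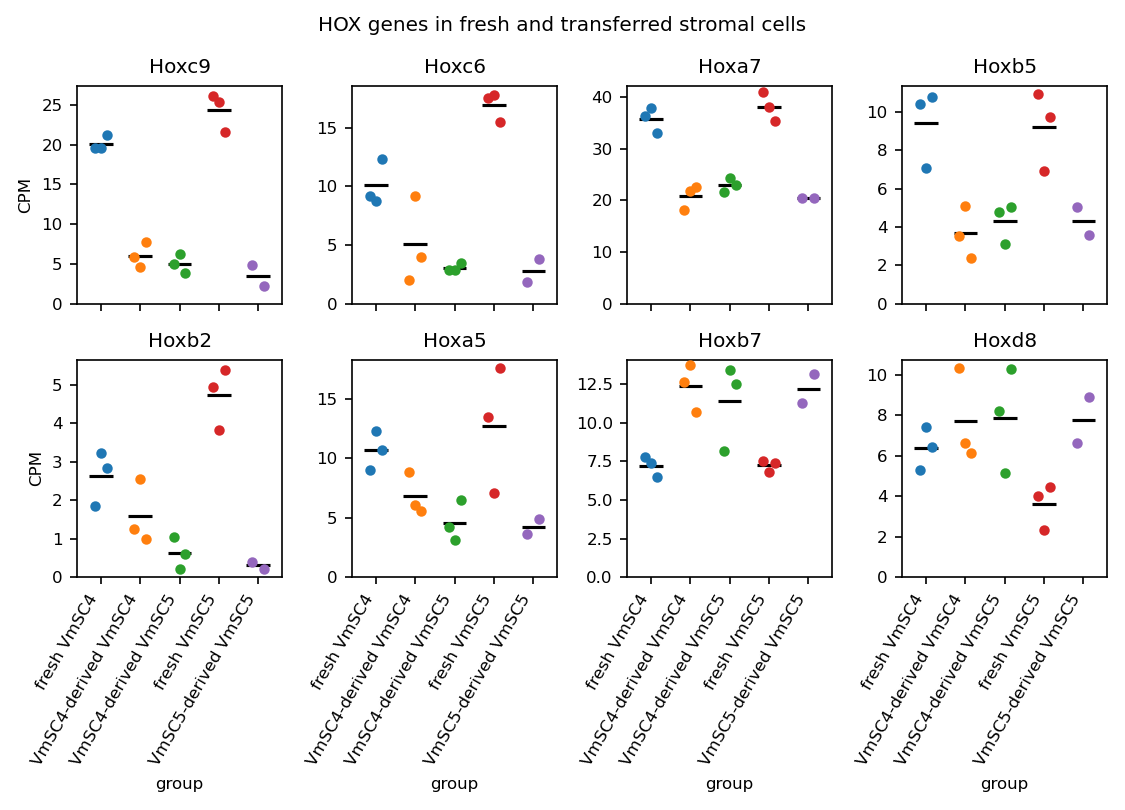
CPM (vertical axes, each from 0) of 8 HOX genes in every library (points) of fresh and transferred stromal cells (horizontal axes), with group means as black lines. Hoxc9 lies at 19.6 to 26.2 CPM fresh and 2.23 to 7.73 CPM transferred, and Hoxb7 at 6.51 to 7.75 CPM fresh and 8.19 to 13.7 CPM transferred.

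Further falls passed the test in 1 origin each, and the difference between origins was not tested. In VmSC4 these were Hoxa9 (−2.10 ± 0.62, adjusted p = 0.00716; 0.0568 without fresh replicate 1) and Hoxc5 (−0.77 ± 0.24, adjusted p = 0.0121; 0.130 without transferred replicate 3). In VmSC5 Hoxa5 went from 13.5, 7.12 and 17.6 to 3.62 and 4.90 CPM (−1.64 ± 0.40, adjusted p = 0.00167). Hoxb2 went from 130 to 3 counts over the group (ratio 14.8, counting interval 4.97 to 72.9; adjusted p = 0.000172).

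Hoxc10 went from 49 to 2 counts (ratio 8.39, interval 2.20 to 71.2; adjusted p = 0.0304), which was lost with DESeq2 (0.0595) and without fresh or transferred replicate 1 (0.181 and 0.250). Hoxa10 went from 33 to 0 counts, at least 3.77-fold lower with the floor (adjusted p = 0.00661; 0.0546 without transferred replicate 1). The 8 stromal markers summed to 98161 to 159267 CPM in transferred and 45652 to 52341 CPM in fresh libraries, and total counts were 5044946 or fewer against 8527769 or more. The 8 endothelial markers summed to 99.4 to 134 CPM in fresh VmSC5 and 195 to 258 CPM in VmSC5-derived VmSC5. Their part in these differences was not tested. The TALE gene Pknox2 rose in both: VmSC4 held 32.2 ± 5.98 CPM fresh and 68.5 ± 1.82 CPM transferred, and VmSC5 held 30.0 ± 6.12 and 55.4 ± 10.4 CPM (n = 2 transferred). In all, 2 TALE genes rose and 0 fell of 9 in VmSC4, where 21.4% of all genes were called higher and 24.7% lower. In VmSC5 3 rose and 2 fell of 9, against 23.9% higher and 22.4% lower over all genes.

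Whether cells that changed from VmSC4 to VmSC5 after transfer took on another HOX combination was tested against both other transferred groups. VmSC4-derived VmSC5 and VmSC4-derived VmSC4 had no HOX gene called of 19, against 1.77% of all genes. At an unadjusted p under 0.05 there were 0 by edgeR, against 2262 of 13947 over all genes, and 0 by DESeq2. The 3 smallest p belonged to Hoxc10 (−1.67 ± 0.88, adjusted p = 0.349), Hoxb2 (−1.17 ± 0.70, adjusted p = 0.420) and Hoxa5 (−0.49 ± 0.38, adjusted p = 0.551). VmSC4-derived and VmSC5-derived VmSC5 also had no HOX gene called, against 1.15% of all genes. At an unadjusted p under 0.05 there were 2 by edgeR, against 1534 of 13947 over all genes, and 2 by DESeq2. Those by edgeR were Hoxa10, with 11 counts against 0 (at least 2.56-fold higher in VmSC4-derived cells; adjusted p = 0.207), and Hoxc4, at 11.9, 15.9 and 14.5 CPM against 21.7 and 22.0 CPM (−0.56 ± 0.24, adjusted p = 0.376), with no overlap.

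Floating cells from Treg-depleted and control mice were on for few HOX genes, led by Hoxc8, Hoxc5 and Hoxa7. DTR- libraries had 7 on (Hoxa7, Hoxb5, Hoxc4, Hoxc5, Hoxc6, Hoxc8 and Hoxc9) and DTR+ libraries 5 (Hoxa5, Hoxa7, Hoxc5, Hoxc8 and Hoxc9). Hoxc8 was at 41.3 and 39.4 CPM in DTR- and 31.6 and 22.4 CPM in DTR+ libraries. Hoxa7 was at 29.0 and 25.3 CPM against 42.1 and 45.7 CPM, without overlap, and was not called. The 5 highest genes by CPM held 79.3% and 82.5% of the HOX sum. That share was 58.0% and 59.8% in the fresh stromal populations. In the 8-day cultures of VmSC4 and VmSC5, which had 8 and 7 genes on, it was 70.7% and 74.7%.

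None of 12 tested HOX genes was called between the genotypes, against 2.43% of all genes. At an unadjusted p under 0.05 there were 2 by edgeR, against 1940 of 11803 over all genes. DESeq2 gave 3 and also called 0. Hoxa5 was at 1.35 and 3.08 CPM in DTR- and 14.6 and 3.41 CPM in DTR+ libraries (2.27 ± 0.80, adjusted p = 0.158). Hoxc4 was at 12.1 and 12.7 CPM against 4.81 and 0.136 CPM (−2.14 ± 0.88, adjusted p = 0.229). Hoxa7 had the next smallest p (log2 fold change 1.17 ± 0.61, adjusted p = 0.352).

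The DTR+ libraries differed from each other: replicate 3 held Hoxc6 at 1.23 CPM and replicate 2 at 12.8 CPM, with 19.2 and 18.9 CPM in DTR-. Without DTR+ replicate 2, 3 of 12 tested HOX genes were called, against 42.6% of all genes in that fit. Without replicate 3, 2 of 12 were called, against 7.15% of all genes. The first were Hoxa7 (1.54, adjusted p = 0.00152), Hoxc4 (−5.60, 1.08e-05) and Hoxc6 (−3.15, 0.000241), and the second were Hoxa5 (2.79, 0.000944) and Hoxb5 (−2.51, 0.0459), as log2 fold changes in edgeR fits in which the lone DTR+ library is assumed to vary like the DTR- pair. The 8 stromal markers summed to 757 and 1885 CPM in DTR- and 220 and 242 CPM in DTR+ libraries, the 8 endothelial markers to 453 and 552 against 20.2 and 49.0 CPM, the 7 mesothelial markers to 31.4 and 96.2 against 3.82 and 20.4 CPM, and the 8 pericyte and smooth muscle markers to 229 and 316 against 37.3 and 80.9 CPM. The part of such cells in the HOX levels was not tested. The labelled adipocyte markers summed to 44982 CPM or more in all 4. None of 6 tested TALE genes was called.

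In VmSC5 cultured with Treg, HOX genes fell and none rose. Of 14 tested, 6 fell, against 43.4% of all genes called, 22.4% higher and 21% lower. The summed HOX level was 125, 123 and 111 CPM without Treg and 79.3, 76.3 and 79.8 CPM with Treg. The median log2 fold change was −0.64 over the tested HOX genes and 0.00 over all genes.

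Hoxa7 was at 21.4, 23.0 and 18.3 CPM without and 7.31, 10.3 and 11.0 CPM with Treg (−1.13 ± 0.17, adjusted p = 5.02e-07). Hoxb6 was at 13, 12.9 and 12.7 against 5.92, 4.59 and 6.54 CPM (−1.16 ± 0.19, adjusted p = 5.57e-06). Neither gene's groups overlapped.

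Hoxc5 was at 14.4, 12.3 and 14.4 against 6.93, 6.53 and 7.10 CPM (−0.98 ± 0.18, adjusted p = 3.03e-05), and Hoxc8 at 29.2, 26.1 and 22.2 against 16.8, 16.7 and 17.3 CPM (−0.61 ± 0.13, adjusted p = 0.000279). Hoxa5 was at 3.65, 5.37 and 4.09 against 1.26, 2.50 and 1.95 CPM (−1.20 ± 0.33, adjusted p = 0.00322), and Hoxa4, which was on in no group, at 2.08, 2.91 and 1.94 against 0.378, 0.556 and 1.11 CPM (−1.76 ± 0.48, adjusted p = 0.00269). None of the 6 calls with Treg was lost under any alternative or without any library. Hoxb7, Hoxc4, Hoxc9 and Hoxd8 were not called, and Hoxc9 was at 3.82, 4.75 and 4.73 against 4.92, 4.17 and 3.90 CPM.

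With OSM, Hoxd8 rose and no other HOX gene was called of the 6 tested. Hoxa4, Hoxa5 and Hoxb6, which fell with Treg, were not among those tested, so a fall of these with OSM could not be called. Hoxd8, a central Hoxd gene, was at 5.41, 7.22 and 4.26 CPM with PBS and 31.3, 16.8 and 24.3 CPM with OSM. Every OSM library lay at more than 2 times every PBS library. The log2 fold change was 2.14 ± 0.35 (adjusted p = 9.27e-07), the call was kept under all 10 alternatives, and the value stayed between 1.93 and 2.40 without any single library. With OSM, Hoxd8 was second of the 39 genes per kb, at 8.79 CPM per kb after Hoxb7 at 9.19 CPM per kb, and ranked 10 with PBS.

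Of 6 tested HOX genes 1 was called, against 45.8% of all genes, 22.8% higher and 23% lower. The other 33 members did not pass the low-count filter. The tested genes without a call were Hoxa7, Hoxb7, Hoxc5, Hoxc6 and Hoxc8. Hoxc8 was at 17.8, 17.8 and 19.6 CPM with PBS and 16.0, 9.33 and 10.5 CPM with OSM, and Hoxc5 at 10.8, 17.8 and 15.3 against 10.4, 4.66 and 10.5 CPM. Their log2 fold changes of −0.50 ± 0.31 and −0.66 ± 0.36 missed the threshold (adjusted p = 0.191 and 0.133), and Hoxb7 gave 0.41 ± 0.34 (adjusted p = 0.346).

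Hoxd9, the gene next to Hoxd8, was filtered out for low counts. It had 0 counts in the 3 PBS libraries and 11 in the OSM libraries (1.60, 6.53 and 1.31 CPM), at least 4.34-fold higher with that floor. It was called without the low-count filter (adjusted p = 0.00759) and by DESeq2 (adjusted p = 0.0312). Hoxd9 was singled out after its values were seen.

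The sequences just upstream of these 2 Hoxd neighbours are shown because the RNA of both neighbours was higher with OSM. They are from RefSeq on GRCm38.p6, plus strand, 5′ to 3′, with CG dinucleotides in capitals. The Hoxd8 stretch is chr2:74704365-74704614 (250 bases) and the Hoxd9 stretch is chr2:74697513-74697726 (214 bases), each ending just before the start of the gene in GENCODE.
Hoxd8: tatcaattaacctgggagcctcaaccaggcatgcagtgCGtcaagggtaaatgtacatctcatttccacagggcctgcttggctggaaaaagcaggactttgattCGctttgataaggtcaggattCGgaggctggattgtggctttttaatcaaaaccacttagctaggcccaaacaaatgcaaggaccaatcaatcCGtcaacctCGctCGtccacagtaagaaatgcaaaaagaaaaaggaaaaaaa
Hoxd9: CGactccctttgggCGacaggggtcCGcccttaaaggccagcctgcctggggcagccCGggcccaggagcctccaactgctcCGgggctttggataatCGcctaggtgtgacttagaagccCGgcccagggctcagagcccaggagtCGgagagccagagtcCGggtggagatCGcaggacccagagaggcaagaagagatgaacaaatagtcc
The Hoxd8 stretch had 6 CG dinucleotides and a GC content of 44.4%, the Hoxd9 stretch 10 and 63.6%. OSM is known to act through STAT transcription factors, so the STAT palindrome TTCNNNGAA, which reads the same on both strands, was searched. It was in neither stretch. Over 250 upstream bases it was in 1 of 24 HOX entries, that of Hoxd4, and in 7.02% of all 32851 promoters. The HOX and PBX composite TGATNNAT, on either strand, was in 4 of the 24 and in 7.68% of all promoters, and in neither printed stretch. CG dinucleotides had a median of 12.5 per 250 bases in the HOX entries and 6 in all promoters. These entries covered 22 of the 39 genes, and no sequence is shown for the others, among them Hoxb6, Hoxc6, Hoxc8 and Hoxc9. A match or its absence describes these letters only.

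**Figure D5:**
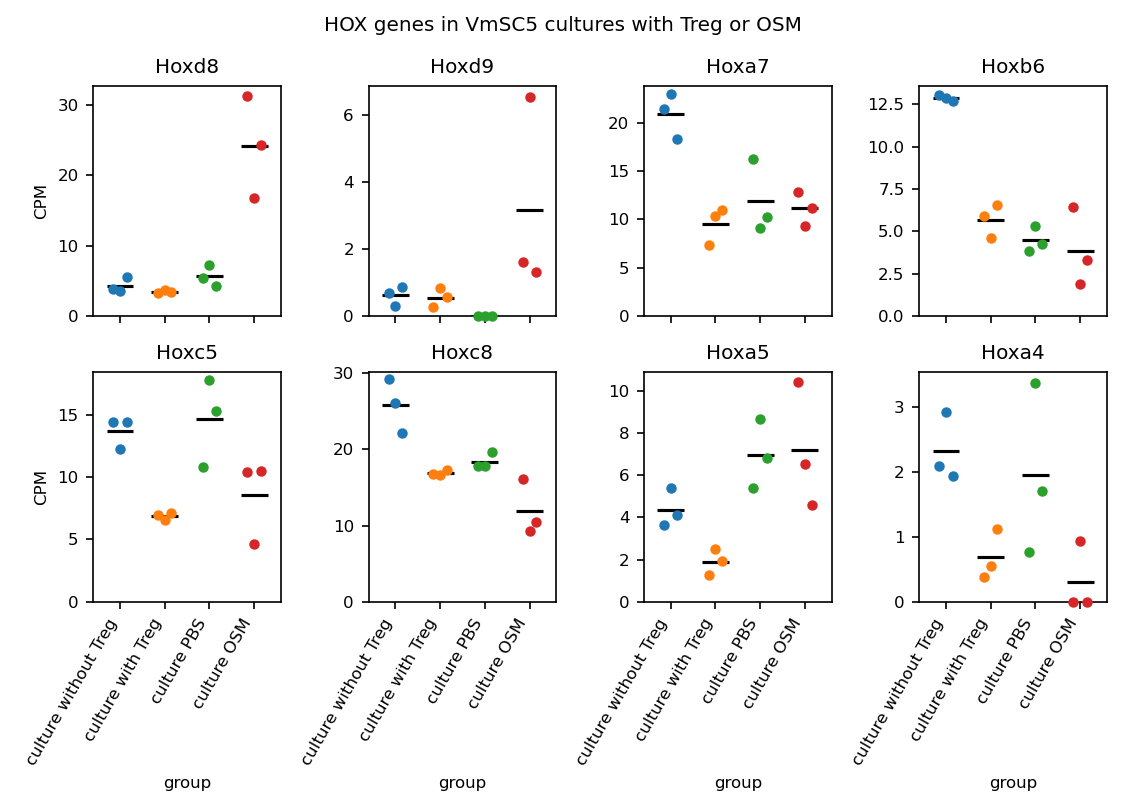
CPM (vertical axes, each from 0) of 8 HOX genes in every library (points) of VmSC5 cultures without or with Treg and with PBS or OSM (horizontal axes), with group means as black lines. Hoxd8 lies at 16.8 to 31.3 CPM with OSM and at 3.28 to 7.22 CPM in the other 9 libraries, and Hoxa7 and Hoxb6 are lower with Treg than without.

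The responses to OSM and to Treg were compared in 1 fit of the 4 groups. Of 13 tested HOX genes 2 differed, both more positive with OSM, against 32.5% of all genes called, 15% higher and 17.5% lower. They were Hoxd8, with a difference of 2.48 ± 0.45 (adjusted p = 2.00e-05), and Hoxa7, with 1.23 ± 0.38 (adjusted p = 0.00989). For Hoxd8 the response to Treg itself ran from 3.82, 3.53 and 5.59 CPM without to 3.28, 3.61 and 3.34 CPM with Treg and was not called. For Hoxa7 the PBS values of 16.2, 9.14 and 10.2 CPM and OSM values of 12.8, 9.33 and 11.2 CPM overlapped, while it fell with Treg. The Hoxa7 difference had an adjusted p of 0.0560 without PBS replicate 2. The third smallest p was that of Hoxa5, at 1.32 ± 0.56 (adjusted p = 0.0646). The experiments differed in depth, at 1072147 to 2078534 counts for PBS and OSM and 4648878 to 7933682 for the Treg cultures.

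Cell type markers moved in both experiments. The 8 stromal markers summed to 12973 to 13264 CPM with PBS and 50550 to 61352 CPM with OSM, and to 5276 to 6208 CPM without and 13106 to 15194 CPM with Treg. The 8 adipocyte markers summed to 11943 to 13701 against 981 to 1428 CPM, and to 22329 to 24194 against 13945 to 15769 CPM. The 8 pericyte and smooth muscle markers summed to 185 to 231 CPM with PBS and 1019 to 1331 CPM with OSM, and all 6 of them that were tested rose. The 8 endothelial markers went from 74.9 to 90.4 CPM with PBS to 215 to 262 CPM with OSM, with 6 of 6 tested higher, and the 7 mesothelial markers from 58.8 to 114 CPM to 8.02 to 13.1 CPM, with 4 of 4 tested lower. With OSM the stromal, pericyte and smooth muscle, and endothelial sums were thus higher, as was Hoxd8, and the adipocyte and mesothelial sums lower. Between cultures without and with Treg, the pericyte and smooth muscle markers went from 96.8 to 134 CPM to 55.8 to 64.9 CPM. The endothelial sum went from 82.8 to 102 to 44.0 to 78.1 CPM, though of 7 tested Egfl7 was called lower and Tek higher. The mesothelial markers went from 10.6 to 12.0 to 23.5 to 41.0 CPM. The sum of the 8 macrophage markers went from 239 to 279 to 134 to 152 CPM. Of 8 tested, however, Lyz2 was called lower and Csf1r and Mrc1 higher. The part of any of these markers' cells in the HOX values was not tested.

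Several partners of HOX proteins rose with OSM. Of 7 tested TALE genes 5 rose and 0 fell, against 22.8% of all genes called higher. Pknox2 was at 16.9 ± 2.07 CPM with PBS and 62.9 ± 5.68 CPM with OSM (1.98 ± 0.21), Meis1 at 28.0 ± 4.39 and 58.2 ± 7.03 CPM (1.19 ± 0.19), and Pknox1 at 28.6 ± 1.89 and 44.2 ± 3.53 CPM (0.72 ± 0.20). With Treg 2 of 9 rose, among them Pknox2 (0.72 ± 0.17), a share close to the 22.4% of all genes called higher.

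Cyp26b1, whose enzyme breaks down retinoic acid, an inducer of HOX genes, went from 6.49 ± 1.56 to 63.3 ± 5.12 CPM with OSM (3.30 ± 0.25), and the receptor gene Rarg from 11.2 ± 2.08 to 43.2 ± 10.8 CPM (1.97 ± 0.26). In all, 3 rose and 2 fell of 9 tested Cdx and retinoid genes, both with OSM and with Treg, where 45.8% and 43.4% of all genes were called. Wt1 rose with OSM from 44.3 ± 9.24 to 141 ± 27.6 CPM (1.72 ± 0.16) and with Treg from 11.0 ± 1.86 to 21 ± 4.52 CPM (0.97 ± 0.17). Of 23 tested Polycomb and Trithorax genes 3 rose and 0 fell with OSM, and of 30 tested 5 rose and 1 fell with Treg, both below those shares of all genes.

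Treg cells had no HOX gene on. The 39 genes summed to 6.76, 12.9 and 14.6 CPM in WT and 20.1, 35.2 and 10.7 CPM in KO libraries, with overlap, against 187 CPM or more in fresh stroma. Over the 6 libraries they held 303 HOX counts in all, spread over all 39 genes, with 1 to 32 counts each. Hoxa3 had 32 counts and Hoxa9 28, and both had counts in all 6 libraries, as had Hoxd10 and Hoxd11.

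The spread over paralogues differed from that of stroma. Paralogue groups 10 to 13 held 95 of the 303 counts, 31.4%, against 2.77% in fresh stroma. These groups are 12 of the 39 genes, and counts scattered evenly over all 39 would give a share close to this. The counts were not even, with 19 for Hoxd11, 17 for Hoxa13 and 16 for Hoxd10 but 1 each for Hoxc10 and Hoxc11. What these few counts come from was not tested. Hoxb1, Hoxd1 and Hoxd13 had 4, 1 and 6 counts in Treg cells and 0 in all 36 other libraries. Stromal genes were near 0: Hoxc8 had 2 counts in 6 libraries, Hoxc9 3 and Hoxb6 2, where fresh VmSC4 had 596, 711 and 182 counts. The 8 stromal markers summed to 5.08 to 23.2 CPM in Treg libraries. In KO replicate 2, the library with the highest HOX sum and the fewest counts, Hoxa5, Hoxa7 and Hoxa9 were each at 4.64 CPM.

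None of the 39 genes passed the low-count filter between WT and KO Treg cells, where 0.0526% of all genes were called. Without the filter all 39 were tested and 0 were called, with 1 at an unadjusted p under 0.05, Hoxa5 (adjusted p = 0.646). DESeq2 called 0. Hoxa5 was at 0, 0 and 0.256 CPM in WT and 0.240, 4.64 and 1.19 CPM in KO libraries. With so few counts per gene, the lack of a call does not show that the genotypes are alike.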

How the data were processed

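RNA-seq libraries were made from small numbers of sorted cells, from lysed culture wells or, for floating cells, from purified RNA, per the labels' protocols. The deposited table holds raw counts per gene for 42 libraries. Per the submitters' processing notes the tools were STAR 2.7.3a and featureCounts on mm10. The annotation release and strand setting are not given in the sources used here. Every column matched a label.

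From the deposited counts, CPM was computed by library total, and CPM per kb with GENCODE M21 exon lengths. A gene was "on" at 3 CPM or more in every library of a group. Tests used edgeR 4.0.16 (R 4.3.3): quasi-likelihood F tests on all genes passing filterByExpr, TMM scaling, Benjamini-Hochberg adjustment, called at an adjusted p under 0.05, each experiment fitted by itself. Ratios on few counts carry exact 95% counting intervals, and a group at 0 is set to a floor of 3 counts. Both cover counting error only. Scripts were tested on simulated data.

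DESeq2 1.42.0, RLE scaling, no filter, fewer groups, a replicate block and leaving out each library were alternatives. No libraries were identical. The members and lists were chosen with earlier results of these data known. Apart from some genes that are not reported here, every gene on anywhere is described, fold changes are given for genes called or, where fewer than 3 were, also for the 3 smallest p, and up to 3 called genes are named per other list. A group of 2 or 3 libraries limits the precision of each mean.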

Additional observations from a re-analysis of the deposited data

Results flagged for a closer look

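The response to OSM and the response to Treg differed by an interaction contrast in edgeR for 2 HOX genes. Hoxd8 differed by 2.48 on the log2 scale, with all 3 OSM libraries above all 3 PBS libraries, and Hoxa7 by 1.23, with all 3 libraries with Treg below all 3 without. The experiments had separate controls and different depths, and the part of depth was not tested.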

How the results depend on the processing

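Counts of HOX genes called were within 1.5 times the reported count under the alternatives except as follows. Between fresh populations, 1 (Hoxc6) was called in place of 0 under RLE scaling, without the low-count filter and with only the 2 groups, and 0 to 1 when single libraries were left out (1 without fresh VmSC4 replicate 3). Culture of VmSC4 gave 6 to 11 in place of 10 when single libraries were left out. Floating cells gave 0 to 3. OSM gave 2 in place of 1 without the filter and with DESeq2, the addition being Hoxd9. No direction of a called value reversed.

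Replicate numbers did not pair the samples by correlation of their deviations: in no comparison did every pair exceed 0.1 with 3 or more pairs. With the replicate number as a block, transfer of VmSC5 gave 9 called HOX genes in place of 10, with Hoxb7 lost, and the other counts of HOX genes did not move. Same-numbered cultures of VmSC4 and VmSC5 all correlated best with their own number (6 of 6 libraries), as a hint from the data. In floating cells the same-number correlation was −0.482, and a crossed replicate block, chosen after seeing the data, gave 2 called HOX genes of 12, against 8.94% of all genes in that fit.

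Without the filter the median log2 fold change of all genes for culture of VmSC4 moved by −0.93, from −0.23 to −1.16. Counts under the low-count filter kept 33 members from the OSM test and all 39 from the test of WT against KO Treg cells.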
